A study of Rattus norvegicus with 23 samples.

Results

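The genes described here are the matrix proteases of the endothelial cell and their inhibitors: the matrix metalloproteinases (MMPs), the ADAM and ADAMTS proteases, the ADAMTS-like proteins, the tissue inhibitors of metalloproteinases (TIMPs) and Reck. They were taken by name and gene type, as every protein-coding gene of the deposited count table called Mmp, Adam, Adamts or Adamtsl with a number, Timp1 to Timp4, or Reck. The rule found 75 of the 32883 genes in the table, namely 22 MMPs, 25 ADAMs, 19 ADAMTS proteases, 4 ADAMTS-like proteins and 5 inhibitors. A further gene, Adam1a, fits the name but is typed as a pseudogene and was left out. Of the 75 genes, 40 passed the low-count filter and could be tested, beside 13834 genes in all.

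RNA was sequenced from primary rat brain endothelial cells grown with pericytes and astrocytes, a culture model of the blood-brain barrier in which each library is the endothelial lysate of 1 insert. In normoxia (n = 6) the inserts had no deprivation and no compound. In the OGD/R group (n = 6) oxygen and glucose were withdrawn and oxygen was then given back, which imitates a stroke and its reperfusion in a dish. The DMT group (n = 5) had OGD/R with N,N-dimethyltryptamine, a ligand of sigma and serotonin receptors, and the BD1063 group (n = 6) had OGD/R with both DMT and BD1063, a sigma receptor antagonist. No group with DMT or BD1063 lacks OGD/R, and no group had BD1063 without DMT. The sources used here give no doses or times and do not state whether inserts came from separate cell isolations. The p-values therefore measure only the spread between these inserts.

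MMPs and ADAMTS proteases are zinc enzymes that cut collagens, laminins and proteoglycans of the basement membrane on which brain endothelium rests, and ADAMs mostly release the outer parts of membrane proteins, a step called shedding. TIMPs block the active site of these enzymes, and Reck is an inhibitor anchored in the membrane. In ischemic brain, cutting of the basement membrane by gelatinases is a known route to a leaking barrier, so the balance of proteases and inhibitors in the endothelial cell is of interest. RNA levels do not measure enzyme activity, since most of these proteases are made as inactive precursors.

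The promoters of the set fell into contrasting kinds, and 6 are printed because they belong to the members that results turn on (Timp3, Adamts9 and Adamts1) or to the MMP cluster that gave few reads (Mmp3, Mmp10 and Mmp13). The RefSeq promoter table (build GRCr8, 250 bases before to 50 after each start) held 51 of the 75 members, and sequences run 5′ to 3′ on the gene's strand. Capitals mark matches, on either strand, to the AP-1 motif TGANTCA, the GC box GGGCGG, the TATA box TATAAA or the hypoxia response element core ACGTG. Neighbouring matches can overlap, as a pair of TATA box matches on opposite strands does in the upstream part of the Mmp10 promoter.
Timp3 (chr7:19459509-19459808, minus strand): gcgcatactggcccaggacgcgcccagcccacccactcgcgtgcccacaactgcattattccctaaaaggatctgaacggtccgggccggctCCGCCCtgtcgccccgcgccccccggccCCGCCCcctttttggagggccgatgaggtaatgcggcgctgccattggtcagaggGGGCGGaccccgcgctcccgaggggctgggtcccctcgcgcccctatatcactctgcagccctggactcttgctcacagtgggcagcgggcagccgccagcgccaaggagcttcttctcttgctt
Adamts9 (chr4:127019827-127020126, minus strand): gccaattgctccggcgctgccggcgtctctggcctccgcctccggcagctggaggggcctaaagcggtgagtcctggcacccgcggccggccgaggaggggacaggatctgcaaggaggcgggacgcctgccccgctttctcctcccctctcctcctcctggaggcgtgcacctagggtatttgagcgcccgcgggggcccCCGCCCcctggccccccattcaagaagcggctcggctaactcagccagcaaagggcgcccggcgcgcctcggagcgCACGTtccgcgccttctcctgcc
Adamts1 (chr11:38427335-38427634, minus strand): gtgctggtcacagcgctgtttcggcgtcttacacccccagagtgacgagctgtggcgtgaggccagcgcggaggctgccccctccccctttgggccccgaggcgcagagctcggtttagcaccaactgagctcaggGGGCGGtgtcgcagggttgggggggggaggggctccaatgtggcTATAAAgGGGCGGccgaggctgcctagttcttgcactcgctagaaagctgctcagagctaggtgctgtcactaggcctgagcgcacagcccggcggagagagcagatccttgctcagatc
Mmp3 (chr8:12925031-12925330, plus strand): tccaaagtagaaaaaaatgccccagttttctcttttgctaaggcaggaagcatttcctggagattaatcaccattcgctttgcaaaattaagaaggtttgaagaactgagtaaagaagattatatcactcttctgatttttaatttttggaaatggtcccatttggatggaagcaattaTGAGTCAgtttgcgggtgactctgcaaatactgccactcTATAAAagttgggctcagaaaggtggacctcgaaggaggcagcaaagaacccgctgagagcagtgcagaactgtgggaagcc
Mmp10 (chr8:12974457-12974756, plus strand): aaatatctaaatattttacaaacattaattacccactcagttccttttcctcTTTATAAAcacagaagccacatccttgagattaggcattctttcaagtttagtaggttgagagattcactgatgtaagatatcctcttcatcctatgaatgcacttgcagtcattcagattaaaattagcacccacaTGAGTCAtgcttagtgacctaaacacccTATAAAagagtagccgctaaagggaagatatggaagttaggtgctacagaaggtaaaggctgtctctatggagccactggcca
Mmp13 (chr8:12782579-12782878, plus strand): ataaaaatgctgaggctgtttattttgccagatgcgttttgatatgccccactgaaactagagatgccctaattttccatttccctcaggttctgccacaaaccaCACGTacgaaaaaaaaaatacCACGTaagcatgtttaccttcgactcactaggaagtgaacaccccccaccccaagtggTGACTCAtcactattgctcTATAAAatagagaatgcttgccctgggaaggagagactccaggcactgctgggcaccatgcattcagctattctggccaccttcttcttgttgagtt

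Among the 30 tested members with a promoter, 22 held a GC box, against 4 of the 21 members below the filter and 33.1% of all 33469 promoters. The AP-1 motif, by contrast, stood in 2 of the 30 tested members (Adam19 and Mmp3) and in 7 of the 21 below the filter, against 7.3% of all promoters. A TATA box match was found in 4 of the 30 and in 12 of the 21, against 14.2% of all. The hypoxia response element core was in 5 of the 30 and 7 of the 21, against 19.3% of all. Median GC content was 66.8% for the tested members, 47.7% for those below the filter and 51.7% for all promoters. These matches describe letters in that window and say nothing of binding.

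Library totals ran from 12162759 gene counts (DMT 3) to 18565166 (normoxia 1), and no library repeated another of its group. OGD/R 3, OGD/R 5 and DMT 5 had the lowest TMM scaling factors (0.9565, 0.9483 and 0.9411, against 0.9786 to 1.03 in the rest). Summed over 10 genes, endothelial markers lay between 8410 and 9990 CPM (counts scaled to a common library size) in every library, which matches the labelled cell type. Markers of astrocytes summed to at most 1.18 CPM, with 0 of 7 passing the filter, and at least 1 of the 7 was at 0 in each group. Those of microglia and leukocytes summed to at most 9.99 CPM, and pericyte and smooth muscle markers to between 122 and 334 CPM. In such bulk lysates, fewer cells of a type and less RNA per cell cannot be told apart. All levels below are CPM after TMM scaling, a share of the reads of a library that does not correct for gene length, so levels are not compared between genes.

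After OGD/R, the RNA of the type IV collagenase Mmp2 and of the inhibitors Timp3 and Timp2 was lower than in normoxia, several ADAMTS proteases fell, and Adamts1 and Adamts4 rose. Of the 40 members tested, 14 were called (adjusted p under 0.05), 4 higher and 10 lower. That share of 35% stands beside 35.5% of all 13834 genes, so the set as a whole was called about as often as any gene. By direction, 18.9% of all genes were called higher and 16.7% lower. The members' median log2 fold change was -0.10, against 0.01 for all genes. In 6 members, all lower after OGD/R, the groups did not overlap (Mmp2, Adamts12, Timp3, Adamts7, Adamtsl4 and Adamts10), beside 16.4% of all genes without overlap in either direction and 7.23% with OGD/R lower. DESeq2 called 15 members, where it called 37.3% of all genes, and limma voom 16, where it called 44.8%. At an unadjusted p under 0.05 there were also 16 members, beside 44.4% of all genes. Without OGD/R 3, OGD/R 5, DMT 5, normoxia 3 and normoxia 5, a set chosen after earlier results were seen, the count was again 14, but 1 member was higher (Adam32) and 13 were lower, and the calls of Adamts1, Adamts4, Mmp16 and Timp2 were lost.

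**Figure D1:**
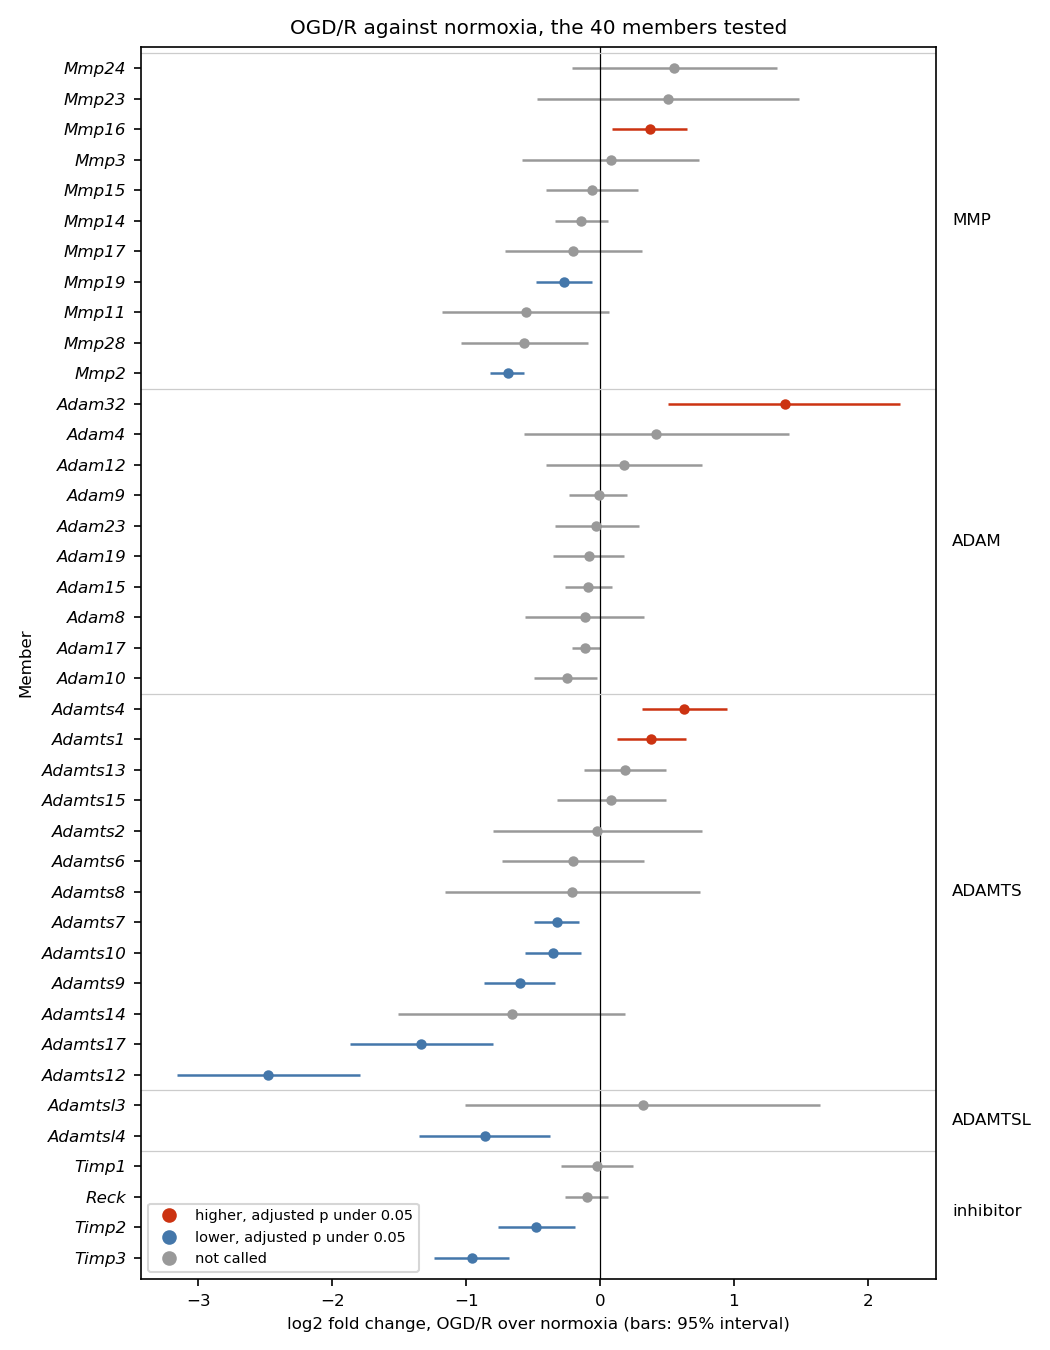
Log2 fold change of OGD/R over normoxia (x axis) with its 95% interval for the 40 tested members (y axis), ordered by family; red and blue mark members called higher or lower at an adjusted p under 0.05 and grey those not called. Of the 10 members called lower, 5 are ADAMTS proteases and 2 are TIMPs, with Adamts12 lowest at -2.48 and Adam32 highest at 1.38. Adamts12 and Adam32 each passed the low-count filter only through groups where the gene is high.

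Timp3, the inhibitor that binds to the matrix and also blocks several ADAM and ADAMTS enzymes, was at 123, 181 and 192 CPM (lowest, median, highest) in normoxia and at 71.6, 87.8 and 97.2 CPM after OGD/R. Every OGD/R insert lay below every normoxia insert. The means were 168 ± 26.8 (SD, n = 6) and 86.1 ± 8.55 CPM (n = 6), and the log2 fold change was -0.96 with an SE of 0.14 (adjusted p = 7.66e-06; values after ± on the log2 scale are SEs from here on). Timp2, which bridges the Mmp2 precursor to its activator Mmp14, was at 18.8, 21.7 and 24.1 CPM in normoxia and at 10.3, 15.1 and 23.1 CPM after OGD/R. It was lower on average (log2 fold change -0.48 ± 0.14, adjusted p = 0.0106), with OGD/R 2 and OGD/R 6 above the lowest normoxia insert and the lowest values in OGD/R 3 and OGD/R 5. Without the set of 5 libraries named above, its log2 change was -0.23 with an adjusted p of 0.101.

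Timp1, the inducible TIMP often raised in injury, ran from 27.2 to 36 CPM with a median of 29.3 in normoxia and from 25.4 to 38.8 CPM with a median of 29.2 after OGD/R. The ranges overlapped almost fully, with a log2 difference of -0.02 (95% interval -0.29 to 0.25; adjusted p = 0.917). Reck, which in brain endothelium is also part of the Wnt7 receptor complex, ran from 74.8 to 92.1 CPM (median 85.2) in normoxia and from 68.1 to 92 CPM (median 79) after OGD/R, a log2 difference of -0.10 (-0.26 to 0.06; adjusted p = 0.327). Of the 4 inhibitors tested, 2 thus fell (Timp2 and Timp3) and 0 rose, where 16.7% of all genes were called lower and 18.9% higher. Timp4 did not pass the filter, with 0 to 6 counts per library.

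Mmp2, the gelatinase that cuts type IV collagen, stood at 186, 205 and 217 CPM (lowest, median, highest) in normoxia and at 111, 131 and 138 CPM after OGD/R. The gap between the groups was wider than the range of either. The means were 204 ± 10.9 (SD, n = 6) and 126 ± 11.8 CPM (n = 6), and the log2 fold change of -0.69 ± 0.06 had the smallest adjusted p of the set (6.45e-09). Mmp9, the inducible gelatinase most often linked to barrier damage, had 0 to 7 counts per library and 57 in all, too few to test.

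Among the 6 membrane-bound MMPs tested, 1 was called, beside 35.5% of all genes. Mmp14, the main activator of Mmp2 at the cell surface, ran from 22.1 to 29.5 CPM (median 26) in normoxia and from 18.9 to 28.5 CPM (median 23.8) after OGD/R, and the log2 difference was -0.14 (95% interval -0.34 to 0.06; adjusted p = 0.278). Mmp15, its close relative, ran from 5.35 to 10.2 CPM (median 8.33) and from 5.48 to 10.6 CPM (median 7.81), a log2 difference of -0.06 (-0.40 to 0.28; adjusted p = 0.794). Mmp16, another member of the type anchored in the membrane, was the called one: it rose from a mean of 3.53 ± 0.519 CPM to one of 4.56 ± 0.519, by 0.37 ± 0.14 on the log2 scale (adjusted p = 0.0367). The ranges overlapped (2.7 to 4.11 and 3.84 to 5.3 CPM), and the call did not hold when normoxia 1, 3 or 4 or OGD/R 2, 3, 4 or 5 was left out (adjusted p up to 0.0957).

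Of the other MMPs, Mmp19, a secreted enzyme found in vessels, had means of 39.5 ± 7.68 CPM in normoxia and 32.8 ± 1.39 after OGD/R, lower by -0.27 ± 0.10 on the log2 scale (adjusted p = 0.0415). Normoxia 5 (25.5 CPM) lay below all OGD/R inserts (31.2 to 34.3), and the call was lost without normoxia 1, 2, 3, 4 or 6 or OGD/R 1, 2, 4 or 5 (adjusted p up to 0.127). Mmp3, the stromelysin known as a target of inflammatory signals, ran from 0.977 to 1.76 CPM (median 1.34) in normoxia and from 0.596 to 2.61 CPM (median 1.32) after OGD/R. It did not pass the test (log2 difference 0.08, 95% interval -0.58 to 0.74, adjusted p = 0.87).

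Among the shedding ADAMs, 0 of the 7 tested were called by edgeR, beside 1 at an unadjusted p under 0.05, 0 by DESeq2 and 2 by limma voom (Adam10 and Adam17). Of all genes, edgeR called 35.5%, DESeq2 37.3% and limma voom 44.8%, and 44.4% had an unadjusted p under 0.05. Adam10, which sheds cadherins and Notch, ran from 218 to 290 CPM (median 275) in normoxia and from 176 to 235 CPM (median 224) after OGD/R, a log2 difference of -0.25 (95% interval -0.49 to -0.02; unadjusted p = 0.038, adjusted p = 0.091). Adam17, the tumour necrosis factor converting enzyme, ran from 156 to 189 CPM (median 184) and from 157 to 179 CPM (median 163), a log2 difference of -0.11 (-0.21 to 0; adjusted p = 0.114). Adam15, an endothelial ADAM that can bind integrins, ran from 382 to 492 CPM (median 424) and from 359 to 465 CPM (median 391; log2 difference -0.09, -0.26 to 0.09). The intervals of these 3 genes reach no lower than -0.49. Some alternatives did call them: Adam10 was called lower in 7 of 33, among them without normoxia 5 (adjusted p = 0.0483), without DMT 5 (0.00821) and with the groups compared alone (0.039). Adam17 was called in 4, among them without normoxia 5 (0.0175) and without OGD/R 3 (0.0408). Adam15 was not close to the threshold in the main fit (adjusted p = 0.448). It was called in 2 alternatives, both with OGD/R 5 and DMT 5 among the libraries left out.

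Adam9 was at 170 to 214 CPM (median 204) in normoxia and 165 to 218 CPM (median 197) after OGD/R, with a log2 difference of -0.01 (95% interval -0.23 to 0.20). Adam19, a shedder of neuregulins, was at 73.9 to 110 CPM (median 106) and 68.3 to 118 CPM (median 93.2; log2 difference -0.08, -0.35 to 0.18). These ranges overlapped throughout. Adam8, best known from leukocytes, was at 22.9 to 40.6 CPM (median 28) and 16.3 to 41.1 CPM (median 25.7; log2 difference -0.11, -0.56 to 0.33). Adam12, which sheds growth factors of the epidermal growth factor family, was at 9.69 to 23.7 CPM (median 18.6) and 7.55 to 27.9 CPM (median 22.4; log2 difference 0.18, -0.40 to 0.76), and both intervals are wider than those of Adam9 and Adam19. The 1 ADAM called was Adam32, a gene known mainly from testis, which rose from a mean of 0.302 ± 0.201 CPM to one of 0.807 ± 0.355, by 1.38 ± 0.42 on the log2 scale (adjusted p = 0.0133). That is 1 to 10 counts per library in normoxia and 4 to 21 after OGD/R, and OGD/R 2 (0.236 CPM) lay within the normoxia range of 0.0625 to 0.541. Adam32 passed the filter (minimum count 10) through the groups with OGD/R, where it is high, so its rise was partly fixed by the filter.

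The called proteoglycan-cutting ADAMTS enzymes moved in opposite directions. Adamts1, which cuts versican and aggrecan, ran from 330 to 375 CPM (median 341) in normoxia and from 363 to 680 CPM (median 416) after OGD/R. Its means were 347 ± 16 and 453 ± 120 CPM (log2 fold change 0.38 ± 0.12, adjusted p = 0.018), and without OGD/R 6, the insert at 680 CPM, the log2 change was 0.23 with an adjusted p of 0.0664. Adamts4, another aggrecanase, ran from 41.5 to 51.4 CPM (median 50.4) and from 51.3 to 116 CPM (median 70.5), with means of 48.9 ± 3.75 and 75.7 ± 24.7 CPM (log2 fold change 0.63 ± 0.15, adjusted p = 0.00272). OGD/R 6 was the highest insert for both genes, OGD/R 3 and OGD/R 5 came next, and OGD/R 1, 2 and 4 were the lowest. Without the set of 5 libraries the log2 changes were 0.36 for Adamts1 (adjusted p = 0.125) and 0.57 for Adamts4 (adjusted p = 0.0589).

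Adamts9, a versican-cutting enzyme close in family to the worm protein GON-1, was at 213, 358 and 380 CPM (lowest, median, highest) in normoxia and at 179, 218 and 251 CPM after OGD/R. Normoxia 5 alone lay within the OGD/R range. The means of 330 ± 63.7 and 218 ± 32 CPM gave a log2 fold change of -0.60 ± 0.13 (adjusted p = 0.000787). Of the 5 proteoglycanases that passed the filter, 2 therefore rose and 1 fell, where 18.9% of all genes were called higher and 16.7% lower. Adamts5, the aggrecanase next to Adamts1 in the genome, missed the filter with 0 to 27 counts per library.

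Adamts12 and Adamts17 showed the largest falls. Adamts12, which can cut cartilage oligomeric matrix protein, was at 0.717, 1.21 and 2.06 CPM (lowest, median, highest) in normoxia and at 0.177, 0.252 and 0.314 CPM after OGD/R, with no overlap. These are 11 to 36 counts per library in normoxia against 3 or 4 after OGD/R, a log2 fold change of -2.48 ± 0.33 (adjusted p = 3.41e-06). The filter's minimum count is 10, so Adamts12 passed it through its normoxia inserts, the group where it is high. Its fall was thus partly fixed by the filter. Adamts17, linked in people to the fibrillin microfibrils of the eye and skeleton, was at 2.61, 4.66 and 5.42 CPM and at 1.06, 1.74 and 2.81 CPM, where the lowest normoxia insert (normoxia 5) fell just below the highest OGD/R insert (OGD/R 6). Its log2 fold change was -1.34 ± 0.26 (adjusted p = 0.000306).

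Further falls came in Adamts7, which like Adamts12 can cut cartilage oligomeric matrix protein (means 51.2 ± 3.86 and 40.9 ± 3.78 CPM; log2 fold change -0.32 ± 0.08, adjusted p = 0.00284), and in Adamts10, a fibrillin-binding protease (means 72.9 ± 4.16 and 57.1 ± 8.69 CPM; log2 fold change -0.35 ± 0.10, adjusted p = 0.00948). Adamtsl4, a fibrillin-binding relative without protease activity, had means of 3.83 ± 0.546 CPM and 2.08 ± 0.757 (log2 fold change -0.86 ± 0.24, adjusted p = 0.00638). In all 3 genes every OGD/R insert was below every normoxia insert. Adamts13, the protease of von Willebrand factor, was at 2.87 to 4.76 CPM (median 4.17) in normoxia and 3.55 to 5.62 CPM (median 4.60) after OGD/R, and did not pass (log2 difference 0.19, 95% interval -0.12 to 0.49, adjusted p = 0.34). By family, 7 of 13 ADAMTS proteases (2 higher, 5 lower), 3 of 11 MMPs and 1 of 10 ADAMs were called, beside 35.5% of all genes, and no difference between families was tested.

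**Figure D2:**
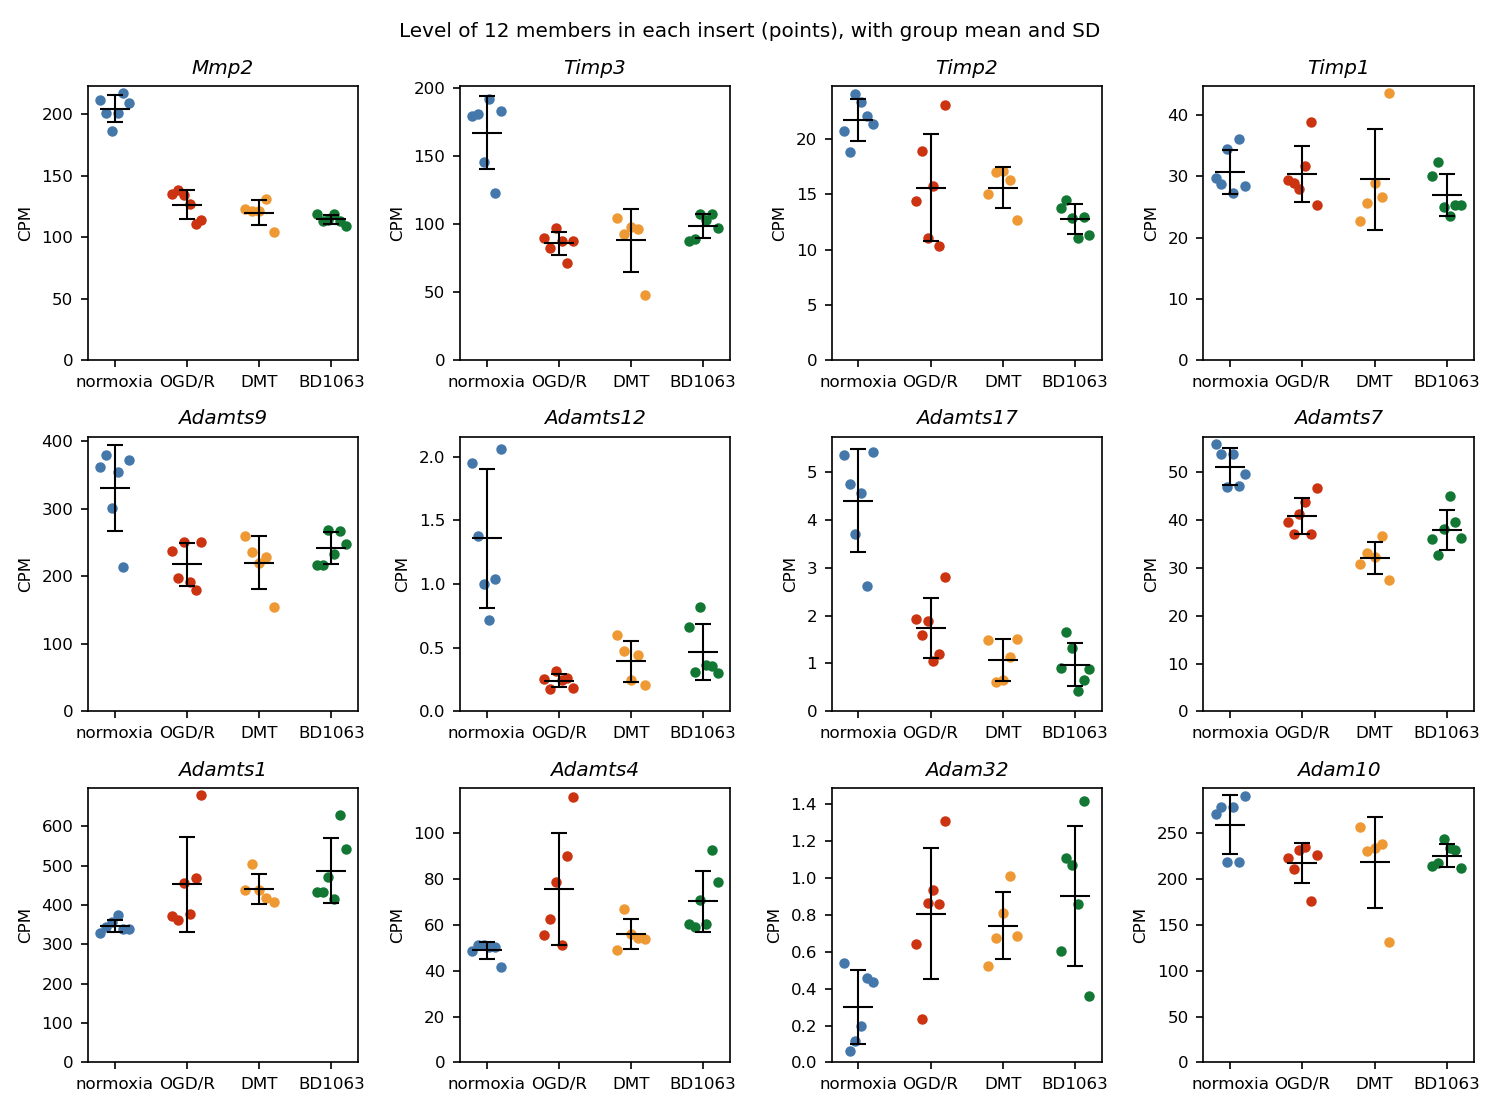
CPM in each insert (points) with the group mean and SD (bars) for 12 members, by group on the x axis. All OGD/R inserts lie below all normoxia inserts for Mmp2, Timp3, Adamts12 and Adamts7, while Timp1 and Adam10 overlap between groups and DMT 5 is the lowest DMT insert for Timp3 (47.8 CPM) and Adam10 (131 CPM).

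The remaining 35 members were at or near the limit of detection. No read was counted in any library for 15 of them, 8 had 1 to 10 reads in all, and 12 had more, up to 147 reads over the 23 libraries (Adamts5). On chromosome 8 the run of 10 neighbouring MMP genes from Mmp13 to Mmp7 held 1 member that passed the filter, Mmp3, and 4 with no read. Mmp13, a collagenase, had 0 to 10 counts per library and Mmp10, a stromelysin, 0 to 13. The main fit did not test these genes, and few reads are not the same as absence. Adamts5 and Mmp10 were called in some alternatives, given below.

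Activators and partners of the proteases were called 6 times among 17 tested (4 higher, 2 lower), a share like the 35.5% of all genes, so the calls below are of single genes and not of the list. Plau, the urokinase that starts the plasmin cascade, and its receptor Plaur rose by 0.58 ± 0.095 and 0.27 ± 0.078 on the log2 scale (adjusted p = 4.53e-05 and 0.0105). Sdc1, a syndecan that is itself shed, rose by 0.88 ± 0.12, and Pcsk6, a convertase that cuts precursors, by 1.70 ± 0.35. Rhbdf1, which carries Adam17 to the surface, fell by 0.34 ± 0.044 (adjusted p = 2.32e-06), and Pcsk7, another convertase, fell by 0.21 ± 0.048.

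The list of other inhibitors had 5 of 12 called, beside 35.5% of all genes. All 5 were lower, a direction in which 16.7% of all genes were called, and the list's median log2 fold change was -0.30 against 0.01 for all genes. Papln, a papilin related to the ADAMTS proteins, fell by 1.30 ± 0.18 (adjusted p = 6.82e-06) and Tfpi2, a Kunitz-type protease inhibitor, by 0.50 ± 0.10. The rest of those called do not inhibit matrix metalloproteinases by their best known roles: Cst3 blocks cysteine proteases, Serpinh1 is a collagen chaperone and Pcolce assists procollagen processing (log2 fold changes -0.40 ± 0.10, -0.31 ± 0.065 and -0.74 ± 0.26).

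Substrates were called in 9 of 27 cases, again near the 35.5% of all genes. Of these, 1 was higher and 8 were lower, where 18.9% and 16.7% of all genes were, and the list's median was -0.09. The basement membrane genes Col4a1 (-0.23 ± 0.065), Col4a2 (-0.24 ± 0.085), Lama4 (-0.35 ± 0.097), Lama5 (-0.62 ± 0.14), Lamb2 (-0.52 ± 0.077) and Agrn (-0.27 ± 0.095) fell on the log2 scale. So did the small proteoglycan Bgn (-1.10 ± 0.14) and the adhesion molecule Vcam1 (-0.57 ± 0.18). Kdr, the main receptor of vascular endothelial growth factor, rose (0.50 ± 0.078).

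Some genes listed as markers of another cell type were lower as well. Of the fibroblast and meningeal markers 6 of 7 were found and 4 passed the filter, and 3 were called lower after OGD/R (Col1a1 by -1.08 ± 0.33, Col3a1 by -1.44 ± 0.33 and Fbln1 by -0.85 ± 0.092 on the log2 scale). Pdgfra was tested and not called (means 4.63 CPM in normoxia and 3.37 after OGD/R). Dcn and Lum did not pass the filter, at means of 0.345 and 0.251 CPM in normoxia, where Col1a1 and Col3a1 were at 314 and 285 CPM. The summed level of the 6 markers found was 425 to 945 CPM in normoxia, 136 to 419 after OGD/R, 149 to 399 with DMT and 104 to 395 with BD1063, and none was at 0 in a whole group. The part of these markers in the results for Mmp2, Timp3, Timp2 and the ADAMTS genes was not tested. Pericyte markers were called in 2 of 8 cases (Kcnj8 higher by 1.78 ± 0.28, Pdgfrb lower by 0.94 ± 0.27) and microglial ones in 2 of 4, both higher. Endothelial markers were called in 5 of 10 cases, 2 higher and 3 lower. These counts stand beside 35.5% of all genes called.

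**Figure D3:**
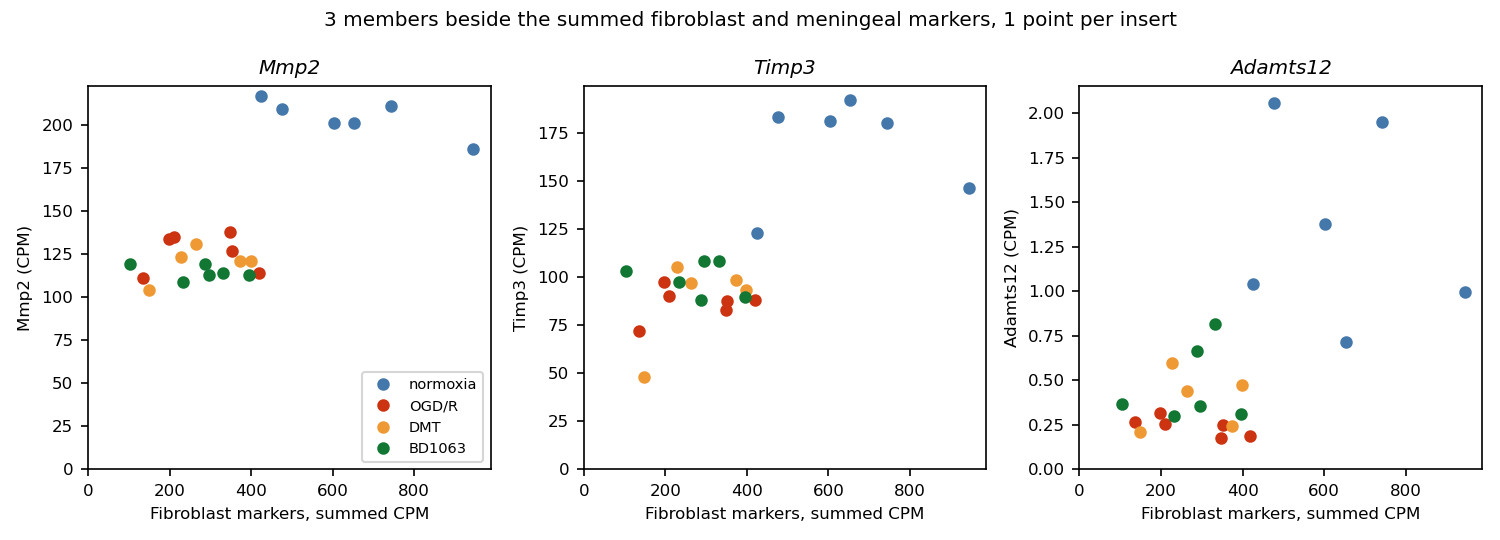
CPM of Mmp2, Timp3 and Adamts12 (y axes) against the summed CPM of 6 fibroblast and meningeal markers (x axes), 1 point per insert, coloured by group. Normoxia inserts lie at 425 CPM or more on the x axis and above the others for all 3 genes, apart from 1 BD1063 insert that exceeds the lowest normoxia value of Adamts12 (0.816 against 0.717 CPM).

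Adding DMT to OGD/R asks whether the compound changed what OGD/R had done. Compared with OGD/R alone, 0 of 40 members were called by edgeR, where 0.492% of all genes were. At an unadjusted p under 0.05 there were 5 members, beside 12.1% of all genes, which is the background share. DESeq2 called 2 (Adamts7 and Mmp15), beside 1.91% of all genes, and limma voom 1 (Adamts7), beside 5.44%. The median log2 difference was -0.09, against 0 for all genes.

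Adamts7 came closest. Its DMT inserts stood at 30.7, 33.1, 32.3, 36.6 and 27.4 CPM, and the OGD/R inserts at 37, 40.4 and 46.6 CPM (lowest, median, highest), so that all DMT inserts lay below all OGD/R inserts, the only member without overlap. Of all genes, 1.37% had no overlap here, 0.578% with DMT lower. The log2 difference was -0.35 ± 0.085 with an adjusted p of 0.0596, and without DMT 5 it was -0.30 with an adjusted p of 0.0349. Mmp15 was at 4.34, 6.15, 6.57, 4.34 and 4.05 CPM with DMT, overlapping the OGD/R range of 5.48 to 10.6 CPM (log2 difference -0.62 ± 0.18, adjusted p = 0.133). Adamts4 was at 49, 67, 55.9, 54.4 and 53.8 CPM with DMT, against a median of 70.5 CPM in OGD/R (log2 difference -0.43, 95% interval -0.77 to -0.10, adjusted p = 0.257).

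Mmp2 was at 123, 121, 121, 131 and 104 CPM with DMT, within or just below the OGD/R range, and the log2 difference of -0.07 (95% interval -0.21 to 0.06) leaves out a return to the normoxia level. Timp3 was at 105, 92.9, 98.4, 96.9 and 47.8 CPM, where 4 inserts lay near or above the highest OGD/R insert and DMT 5 far below (0.04, -0.26 to 0.33). Timp2 stood at 15, 17, 17.1, 16.3 and 12.7 CPM, inside the OGD/R range (0, -0.31 to 0.31). The intervals of these 3 genes reach at most 0.33 on the log2 scale toward a higher level.

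Timp1 was at 22.7, 25.7, 28.9, 26.6 and 43.6 CPM with DMT, its highest value being DMT 5, and Reck was at 90.4, 82.6, 89.8, 87.5 and 64.6 CPM, its lowest being DMT 5. Mmp3 stood at 0.972, 1.15, 1.3, 2.39 and 0.343 CPM and Mmp14 at 20.1, 22.6, 23, 22 and 15.4 CPM. None of these was called against OGD/R, with adjusted p from 0.455 (Mmp14) to 0.951 (Timp1).

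For several sheddases DMT 5 stood apart. Adam10 was at 257, 230, 234, 238 and 131 CPM, Adam9 at 204, 198, 188, 189 and 111 CPM, and Adam15 at 361, 366, 383, 389 and 533 CPM. DMT 5 was thus the lowest for the first pair and the highest for Adam15. OGD/R 5 was likewise the lowest of its group for Adam10 (176 CPM) and Adam9 (165 CPM) and the highest for Adam15 (465 CPM). It was not the lowest for Adam17 or Adam19. Adam17 was at 183, 179, 171, 172 and 159 CPM, Adam19 at 97.5, 97, 91.8, 93.9 and 64.7 CPM, Adam12 at 28.3, 20.9, 15.5, 23.9 and 6.04 CPM and Adam8 at 26.1, 19.2, 21.3, 31 and 12.8 CPM. Log2 differences from OGD/R ran from -0.28 (Adam8) to 0.06 (Adam17), and 0 of 7 sheddases were called, with 0 also at an unadjusted p under 0.05 and 0 by DESeq2 and by limma voom. Of all genes, edgeR called 0.492%, DESeq2 1.91% and limma voom 5.44%, and 12.1% had an unadjusted p under 0.05.

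In the ADAMTS genes, Adamts1 was at 438, 505, 439, 418 and 408 CPM with DMT and Adamts9 at 260, 236, 220, 229 and 155 CPM, with log2 differences from OGD/R of -0.04 (95% interval -0.30 to 0.23) and 0.02 (-0.26 to 0.29). Adamts12 was at 0.598, 0.473, 0.243, 0.44 and 0.206 CPM (0.71, -0.18 to 1.59). Adamts17 was at 1.5, 0.608, 0.648, 1.13 and 1.51 CPM (-0.68, -1.34 to -0.02; adjusted p = 0.399), and Adamts13 at 4.04, 4.59, 4.54, 3.4 and 3.91 CPM (-0.16, -0.48 to 0.16). For Adamts12 and Adamts17 the intervals are wide, and a sizeable effect of DMT on these low genes could have been missed.

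**Figure D4:**
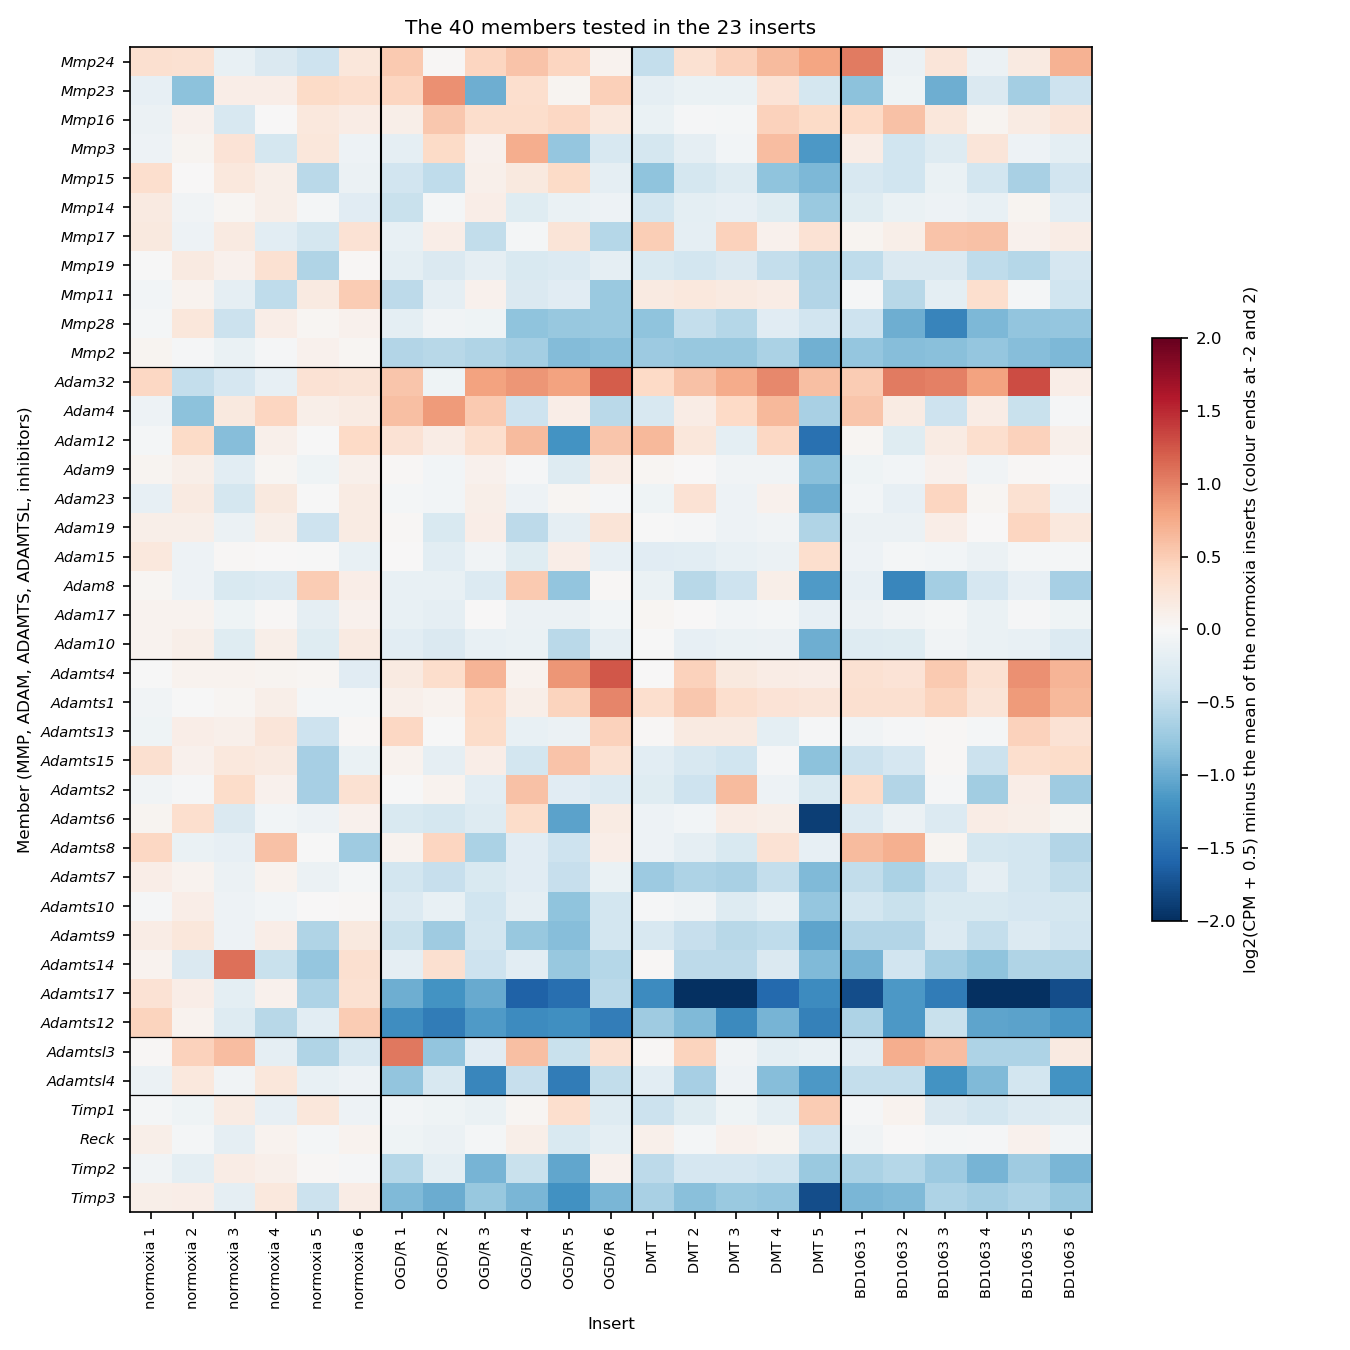
Log2(CPM + 0.5) of the 40 tested members (rows, by family) in the 23 inserts (columns, by group) minus the mean of the normoxia inserts; colours end at -2 and 2, while values run from -2.37 to 1.3. Mmp2, Timp3, Adamts12 and Adamts17 are blue in nearly every insert after OGD/R, with or without compounds, and DMT 5 differs from the other DMT inserts in Adam9, Adam10, Adamts6 and Timp3.

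BD1063 was added to ask whether blocking sigma receptors undoes an effect of DMT. Against DMT alone, 0 of 40 members were called by edgeR, with 2 at an unadjusted p under 0.05 (Adamts7 and Mmp28) and 0 by DESeq2 and by limma voom. Of all 13834 genes, edgeR called 0%, DESeq2 0.00723% and limma voom 0%, and 7.26% had an unadjusted p under 0.05. Adamts7, at 32.6, 37.2 and 45 CPM (lowest, median, highest) with BD1063, was 0.24 ± 0.085 higher on the log2 scale than with DMT alone (adjusted p = 0.664), and all 6 BD1063 inserts were above the DMT mean of 32 CPM while 3 of them lay within the DMT range. Mmp28, a secreted MMP also called epilysin, was at 0.376, 0.72 and 1.15 CPM with BD1063 and at 0.748, 1.08, 0.973, 1.38 and 1.17 CPM with DMT (log2 difference -0.56, 95% interval -1.12 to 0, adjusted p = 0.664).

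For Mmp2 and the inhibitors no difference from DMT passed the test. Mmp2 was at 109, 114 and 119 CPM with BD1063 (log2 difference from DMT -0.07, 95% interval -0.20 to 0.06), Timp3 at 88, 100 and 108 CPM (0.16, -0.13 to 0.46) and Timp2 at 11.1, 13 and 14.5 CPM (-0.29, -0.60 to 0.02). The remaining inhibitors, Timp1 (23.6, 25.3 and 32.3 CPM) and Reck (80.3, 82.5 and 89.8 CPM), differed from DMT by -0.13 (-0.41 to 0.15) and 0.01 (-0.16 to 0.17). Timp2 was below the DMT mean in 6 of 6 inserts without passing the test. Among sheddases, Adam10 (212, 224 and 244 CPM), Adam17 (162, 168 and 174 CPM), Adam9 (186, 195 and 209 CPM) and Adam15 (388, 411 and 414 CPM) varied little from insert to insert, with SDs of 12.9, 4.83, 8.65 and 11.4 CPM. Adam19 was at 90.2, 103 and 133 CPM, Adam12 at 15.1, 19.6 and 24.9 CPM and Adam8 at 11.2, 20.2 and 25.5 CPM.

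Adamts1 was at 415, 452 and 628 CPM with BD1063, Adamts4 at 59, 65.6 and 92.5 CPM and Adamts9 at 216, 240 and 268 CPM. BD1063 5 was the highest insert of its group for Adamts1 and Adamts4, as OGD/R 6 was of its own. Mmp14 (22, 23.5 and 26.9 CPM), Mmp15 (4.9, 6.04 and 7.22 CPM), Mmp3 (0.924, 1.19 and 1.71 CPM) and Adamts13 (3.74, 3.95 and 5.67 CPM) differed from DMT by 0.20, 0.26, 0.04 and 0.09 on the log2 scale, with intervals that all include 0.

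Set against OGD/R alone, the BD1063 group had 1 of 40 members called, beside 5.31% of all genes. It was Mmp23, an MMP held in the membrane by its own N-terminal anchor, at 0, 0.178 and 0.431 CPM (lowest, median, highest) with BD1063 and at 0, 0.789 and 1.36 CPM in OGD/R. The groups overlapped, since OGD/R 3 had no read. The log2 fold change was -1.91 ± 0.56 with an adjusted p of 0.0486, from 0 to 7 counts per library against 0 to 23. The call was lost in 20 of 30 alternatives, up to an adjusted p of 0.243. No BD1063 library reached the filter's minimum count of 10, so Mmp23 passed it through the other groups, where it is higher. Its fall was thus partly fixed by the filter. At an unadjusted p under 0.05 there were 7 members, beside 24.9% of all genes. Adamts17 was called by DESeq2 and, with Mmp2, by limma voom, tools that called 9.38% and 12.2% of all genes. Without OGD/R 5 and DMT 5, 4 members were called lower (Adamts17, Mmp2, Mmp23 and Timp2), with log2 changes of -0.91 for Adamts17, -0.17 for Mmp2 and -0.38 for Timp2. The smooth muscle markers Acta2 and Tagln were also lower in this comparison (log2 fold changes -0.86 ± 0.25 and -0.82 ± 0.16), with list sums of 177 to 334 CPM in OGD/R and 122 to 220 CPM with BD1063, and their part in the result was not tested.

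Each compound group can also be set against normoxia. Both comparisons share the normoxia inserts with the comparison of OGD/R, so their values are given side by side and do not count as repeats of it. With DMT, 11 of 40 members were called, 1 higher and 10 lower, where 23.7% of all genes were called, 12.8% higher and 11% lower. With BD1063, 15 of 40 were called, 3 higher and 12 lower, where 26.3% of all genes were called, 13.1% higher and 13.2% lower. The members' medians were -0.20 and -0.13, against 0.02 and 0.01 for all genes. Limma voom called 17 members with DMT and 20 with BD1063, where it called 35.2% and 42.7% of all genes. DESeq2 called 14 and 17, where it called 25.6% and 28.5%. An unadjusted p under 0.05 was found in 16 and 19 members and in 35.1% and 36.5% of all genes.

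Mmp2 differed from normoxia by -0.69, -0.77 and -0.83 on the log2 scale in OGD/R, DMT and BD1063, Timp3 by -0.96, -0.92 and -0.76, and Timp2 by -0.48, -0.48 and -0.76. Adamts17 gave -1.34, -2.02 and -2.17 and Adamts12 -2.48, -1.77 and -1.53. Adamts7 gave -0.32, -0.68 and -0.43, Adamts9 -0.60, -0.59 and -0.45, and Mmp19 -0.27, -0.44 and -0.44. All of these were called in each group, and the Timp2 call with DMT was lost without DMT 5 (adjusted p = 0.0505).

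Of the members that rose, Adam32 gave 1.38, 1.27 and 1.54, and its DMT call (adjusted p = 0.0417) was lost in 11 of 31 alternatives, among them leaving out normoxia 2, 3 or 4 or DMT 2, 3, 4 or 5. Adamts1 gave 0.38, 0.35 and 0.49, called in OGD/R and with BD1063 but not with DMT (adjusted p = 0.0519), although all DMT inserts were above all normoxia inserts. It was called with DMT in 10 of 33 alternatives, among them groups compared alone (adjusted p = 0.00263), limma voom, DESeq2 and leaving out OGD/R 1, 2, 4 or 6, DMT 5 or BD1063 5, so no difference between the groups follows from the missed call. Adamts4 gave 0.63, 0.20 and 0.52, called likewise (adjusted p with DMT = 0.418). In the direct comparisons between these groups, given above, neither gene was called.

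Some members were called against normoxia with a compound and not in OGD/R alone, but edgeR made no call of them in the direct comparison with OGD/R. With DMT these were Mmp15 (log2 fold change -0.68 ± 0.18, adjusted p = 0.00706) and Mmp14 (-0.34 ± 0.10, adjusted p = 0.0191), the latter lost without DMT 5 (adjusted p = 0.0541). Their adjusted p against OGD/R was 0.133 and 0.455, while the DESeq2 Wald test called Mmp15 lower there (adjusted p = 0.0419). With BD1063 they were Mmp28 (-1.22 ± 0.24, adjusted p = 0.000473) and Adamts14, a procollagen N-proteinase (-1.51 ± 0.45, adjusted p = 0.014), with adjusted p of 0.121 and 0.274 against OGD/R. Mmp28 just missed the threshold in OGD/R against normoxia (-0.57, adjusted p = 0.0581) and passed it in 9 of 32 alternatives, among them without normoxia 3 or OGD/R 1, 2 or 3. Likewise Mmp15 with BD1063 (-0.42, adjusted p = 0.0618) passed in 9 of 33, among them without normoxia 5, OGD/R 2 or 5 or DMT 5. Adamts14 ran from 0.261 to 2.29 CPM (median 0.714) in normoxia, from 0.265 to 1.12 CPM (median 0.546) after OGD/R and from 0.181 to 0.493 CPM (median 0.334) with BD1063, and stood at 0.823, 0.405, 0.405, 0.566 and 0.206 CPM with DMT. Without normoxia 3, its highest insert, the log2 change was -1 with an adjusted p of 0.0774. Adamts14 had 3 to 8 counts per library with BD1063, so it passed the filter (minimum count 10) through the other groups, where it is higher. Its fall with BD1063 was thus partly fixed by the filter. Adamtsl4 and Adamts10 were called lower with BD1063 (-0.86 ± 0.23 and -0.36 ± 0.10) and did not pass with DMT (adjusted p = 0.0577 and 0.119). With DMT, Adamtsl4 was called in 9 of 33 alternatives, among them DESeq2, limma voom and leaving out OGD/R 3 or 5 or DMT 1 or 3, and Adamts10 in 1, limma voom.

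**Figure D5:**
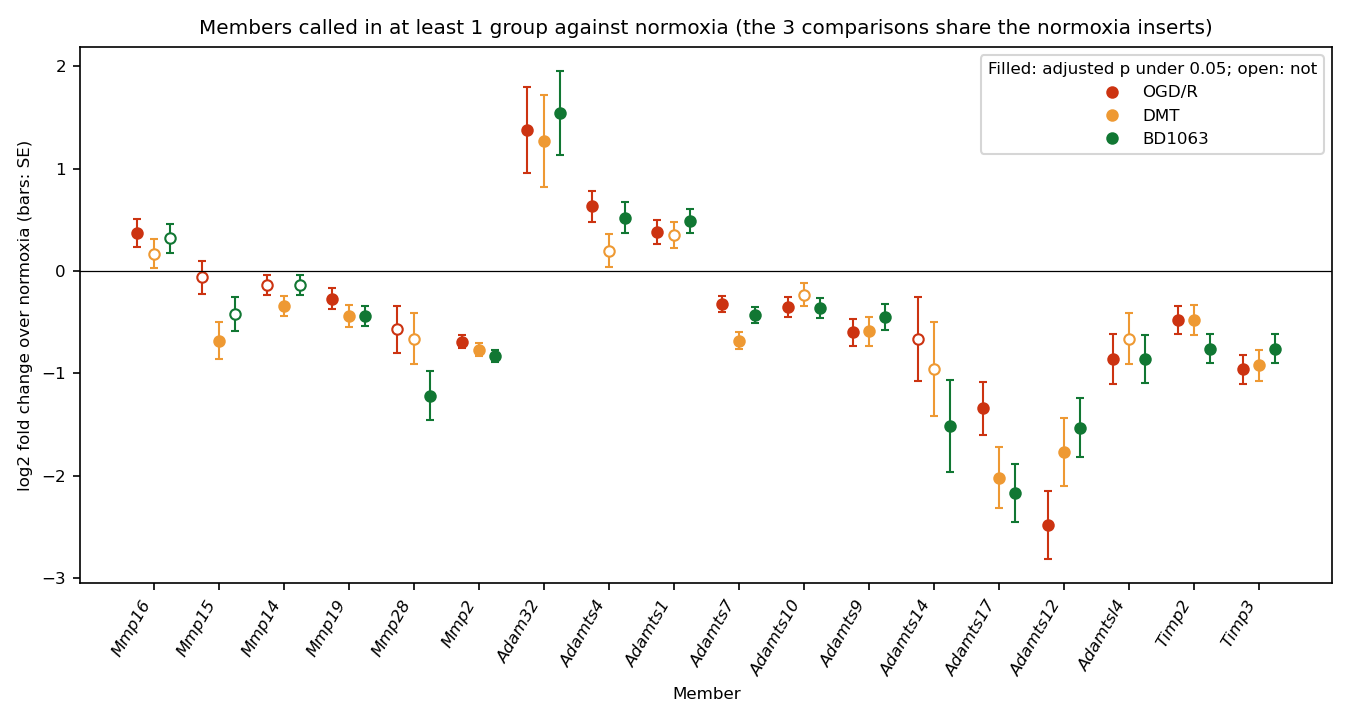
Log2 fold change over normoxia with its SE (y axis) for the 18 members called in at least 1 of the 3 groups (x axis), in OGD/R, DMT and BD1063; filled points passed an adjusted p of 0.05 and open points did not. Mmp2 lies at -0.69, -0.77 and -0.83 and Adamts1 at 0.38, 0.35 and 0.49; all comparisons share the normoxia inserts.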

How the data were processed

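Gene counts of 23 endothelial libraries were used, as the authors deposited them (whole numbers for 32883 genes, each paired with a symbol and a gene type). Per the labels' protocols, the libraries were directional and made from poly-A RNA, with single-end reads. Named without roles in the submitters' processing notes are the build Rnor_6.0 and the tools RSEM 1.3.3, STAR 2.7.10a, DESeq2 1.38, cutadapt 3.4 and FastQC 0.11.9. The sources used here do not say how shared reads were assigned or if counting was by strand, so reads of overlapping genes cannot be told apart. A second deposited table was not used. The 396 identifiers without a name stayed in the fit. All groups entered 1 fit of group means in edgeR 4.0.16 (R 4.3.3; TMM, filterByExpr with a minimum count of 10, robust quasi-likelihood test, two-sided), with Benjamini-Hochberg adjustment over the 13834 genes tested and a threshold of 0.05. Alternatives were DESeq2 1.42.0 (size factors alone, and its Wald test), limma 3.58.1 voom with sample weights, no low-count filter, a filter of 50 counts in 5 libraries, a replicate block, the compared groups alone, each library left out and sets of libraries left out.

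The members, lists and alternatives were chosen with earlier results of these data known. Named are all members called in a comparison and a set of 22 chosen members (gelatinases, Mmp3, Mmp14, Mmp15, TIMPs, Reck, sheddases and Adamts1, 4, 5, 9 and 13). Insert values are given as lowest, median and highest for groups of 6 and in full for DMT. Other genes named are the called members of the lists. Of the 75 members, 74 were in the RefSeq gene table and 51 in its promoter table (GRCr8), which served for sequences and neighbours alone.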

Additional observations from a re-analysis of the deposited data

Results flagged for a closer look

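Of 160 pairs of a member and a group, 13 held 1 insert that stood apart from the rest of its group by Dixon's criterion. Chance alone gives about 1 in 20. In 7 of the 13 that insert was DMT 5. There Timp3 was at 47.8 CPM (92.9 to 105 in the other DMT inserts), Adam10 at 131 (230 to 257), Adam9 at 111 (188 to 204), Adam19 at 64.7 (91.8 to 97.5), Adamts6 at 1.03 (4.79 to 5.76) and Mmp11 at 0.412 (1.01 to 1.08), while Adam15 was high at 533 CPM (361 to 389). OGD/R 5 was also the lowest of its group for Timp3, Adam10, Adam9 and Adamts6 and the highest for Adam15, without standing apart by the criterion. For Adam19 and Mmp11 it was not the extreme.

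OGD/R 6 had 680 CPM of Adamts1, where its group otherwise ran from 363 to 470. Adamts4 was at 41.5 CPM in normoxia 6, against 48.6 to 51.4. Low-count members made up the rest. Adamts2 was at 1.31 CPM in OGD/R 4 (0.5 to 0.766 in the others) and at 1.38 CPM in DMT 3 (0.405 to 0.629), Adamts8 at 0.755 CPM in DMT 4 (0.324 to 0.449) and Adamtsl3 at 0.676 CPM in DMT 2 (0.252 to 0.374).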

How the results depend on the processing

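No called result changed direction. In OGD/R against normoxia the 14 members called became 12 to 16 under the alternatives, and Mmp2, Timp3, Adamts7, Adamts9, Adamts10, Adamts12, Adamts17, Adamtsl4 and Adam32 kept their calls in all that tested them. Adamts5, below the filter in the full set, was called lower without a low-count filter and without OGD/R 5 and DMT 5. The same held without OGD/R 3 and DMT 3, and with any 1 of the DMT libraries left out. These settings also called it lower in DMT against normoxia. Adamts5 has 0 to 27 counts per library. Where a filter was used, it may have passed only through the inserts where it is high. Those calls may thus be partly fixed by the filter and are no added support for a fall. In DMT against OGD/R the 0 calls became 2 with DESeq2, 1 with limma voom, 1 without OGD/R 5 and DMT 5, 1 without OGD/R 3, OGD/R 5, DMT 5, normoxia 3 and normoxia 5 (chosen after earlier results were seen), and 0 to 1 with single libraries left out. In BD1063 with DMT against OGD/R the 1 call became 2 with limma voom, 0 without a low-count filter, 0 with the strict filter, 0 with the groups compared alone, 4 without OGD/R 5 and DMT 5, 5 without those 5 libraries, and 0 to 2 with single libraries left out (2 without DMT 5: Mmp10 and Mmp23). DMT against normoxia went from 11 to 17 with limma voom. BD1063 with DMT against DMT stayed at 0 throughout. The cause of these moves was not tested. DESeq2 gave no adjusted p for Mmp23 in BD1063 against OGD/R, and that setting is left out for it. Depth limits low members such as Adamts12, with 3 or 4 counts per OGD/R library, and Mmp23, with 0 to 23. The filter limit given for Adamts5 also holds for the call of Mmp10, with 0 to 13 counts per library.

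With the replicate number as a block, 15, 0, 0, 1, 11 and 16 members were called in the comparisons in the order OGD/R against normoxia, DMT against OGD/R, BD1063 against DMT, BD1063 against OGD/R, DMT against normoxia and BD1063 against normoxia. Same-numbered inserts correlated from -0.34 to 0.58 in their deviations from the group means, where other pairs averaged -0.03 to 0.02. The best match had the same number for 2 inserts in each pair of normoxia, OGD/R and DMT. In pairs with BD1063 it did so for 0 or 1. This range does not settle whether some numbers mark inserts handled together.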
